A study of Homo sapiens with 4 samples.

Results

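Expression of 10 retinoid genes was examined in KYSE30 cells, an established line of human esophageal squamous cell carcinoma, after knockdown of YY1. YY1, a zinc finger protein, binds DNA and can raise or lower transcription of its targets. In the shYY1 cells a short hairpin RNA targets YY1, and their controls, shNC, carry a negative-control hairpin, with 2 RNA-seq libraries each. Both groups are labelled as the same line and, per the labels' protocols, were stable cells selected with puromycin and grown in serum-containing medium. The labels do not say how many hairpins or clones were used or whether libraries came from separate cultures, so each p reflects the spread between these libraries alone, which may be technical. What lower YY1 does and what a hairpin does by other routes cannot be told apart. In bulk RNA, fewer cells of a type and less RNA per cell cannot be told apart either.

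The genes were matched by gene name and comprised 4 aldehyde dehydrogenases, 1 binding protein, 4 nuclear receptors and 1 CYP26 gene. They were chosen by their function in retinoid metabolism and with earlier results of these data in view, in which the difference in ALDH1A3 counts between the groups was already known. Their values for shYY1 against shNC are therefore a description, and an adjusted p beside one of them is its place in the fit over all genes, not independent support. Of the 10, 9 had a row among the 30716 genes of the table and 8 passed the filter on low counts. ALDH1A1 was not analysed here, and RARB did not pass the filter.

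Retinoic acid is made from vitamin A. Retinol dehydrogenases turn retinol into retinaldehyde, the ALDH1A enzymes oxidise retinaldehyde irreversibly to retinoic acid, and CYP26 enzymes break retinoic acid down. CRABP2 carries retinoic acid to the nucleus, where pairs of a retinoic acid receptor (RAR) and a retinoid X receptor (RXR) bind DNA, holding corepressors without ligand and coactivators with it. In stratified squamous epithelia such as that of the esophagus, this pathway is known for restraining keratinization.

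YY1 itself averaged 3.44 ± 0.253 FPKM in shYY1 and 11.3 ± 0.848 FPKM in shNC (SD, n = 2 each), which checked the labels. FPKM are scaled by gene length and library size, so levels of different genes can be compared only as far as the lengths used hold. Lengths implied by counts and FPKM were 14.3 kb for RXRA, 6.3 kb for ALDH1A3 and 1.28 kb for CRABP2. How these lengths were set is unknown here, and ranks and shares between genes depend on them. Library totals ranged from 67390336 to 72499865 counts. The labelled extraction text speaks of retinas, which bears on a retinoid gene set, so retina markers were read. Of 11 retina markers, 4 had a row, RLBP1 was at 0 counts in all libraries, and the summed level of the 4 was 0.125 and 0.205 FPKM in shYY1, against 0.195 and 0.287 FPKM in shNC. Markers of squamous epithelium were mixed. SFN was the most abundant of the 8 read, at 286 and 271 FPKM in shYY1 against 218 and 245 FPKM in shNC. Its difference did not pass (edgeR adjusted p = 0.0778). TP63, the transcription factor of basal squamous cells, was at 5.97 and 5.57 FPKM in shYY1 against 6.25 and 4.96 FPKM in shNC, and KRT6A lay between 9.44 and 11.1 FPKM over all libraries. The keratins KRT5, KRT14 and KRT17 were low in every library, at most 0.126 FPKM for KRT5, 1.72 FPKM for KRT14 and 0.470 FPKM for KRT17. EPCAM and CDH1, which mark epithelial cells more widely, were at 83.7 FPKM or more and at 34.1 FPKM or more.

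The upstream windows of ALDH1A3, the gene with the largest counts of the set, and of RARA and RARB, the receptor genes whose windows held one of the words searched, are shown from RefSeq (GRCh38.p14), each running from 250 bases before to 50 bases after an annotated start, 5′ to 3′. Capitals mark matches to CCATNTT, a core of YY1 motifs, to AGGTCA, the word of nuclear receptor sites, or to a direct repeat of GTTCA with 6 bases between the copies, as in the retinoic acid response element known from RARB.
ALDH1A3, chr15:100879581-100879880, plus strand: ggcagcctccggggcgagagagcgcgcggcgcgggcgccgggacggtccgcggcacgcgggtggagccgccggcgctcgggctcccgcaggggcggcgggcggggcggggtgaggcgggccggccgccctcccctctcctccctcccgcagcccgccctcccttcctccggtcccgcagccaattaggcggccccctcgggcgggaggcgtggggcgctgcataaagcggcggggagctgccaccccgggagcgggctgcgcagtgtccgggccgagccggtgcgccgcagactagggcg
RARA, chr17:40308930-40309229, plus strand: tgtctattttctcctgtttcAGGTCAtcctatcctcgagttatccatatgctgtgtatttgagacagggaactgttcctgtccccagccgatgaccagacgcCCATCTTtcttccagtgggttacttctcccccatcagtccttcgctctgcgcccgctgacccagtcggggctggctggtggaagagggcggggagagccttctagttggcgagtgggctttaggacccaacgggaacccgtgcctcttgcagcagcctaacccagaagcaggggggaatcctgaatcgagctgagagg
RARB, chr3:25428013-25428312, plus strand: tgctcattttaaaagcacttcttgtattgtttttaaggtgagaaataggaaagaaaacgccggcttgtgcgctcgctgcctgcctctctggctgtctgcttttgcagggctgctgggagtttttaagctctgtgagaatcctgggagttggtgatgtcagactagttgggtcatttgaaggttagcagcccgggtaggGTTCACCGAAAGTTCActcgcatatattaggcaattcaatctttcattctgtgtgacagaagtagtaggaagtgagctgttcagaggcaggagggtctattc

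The ALDH1A3 window had a GC content of 81.7% and held none of the words on either strand. The ALDH1A3 and RARB windows shown lie downstream of those genes' starts in the deposited table (100877714 and 25174332). The bases around these table starts were not searched. The RARA window held CCATNTT, in the form CCATCTT, with its first base 148 bases before the start, and AGGTCA 230 bases before it. In the RARB window the direct repeat began 52 bases before the start. For the set, any RefSeq window on chromosome 8, where none of the 9 genes lies, was left out. This left 15 such windows for 8 of the 9 genes, with none for ALDH3A1. Across all 15, 1 held CCATNTT, 2 held AGGTCA and 1 held the repeat, which was added to the search after values had been seen. The AGGTCA window not shown was another window of RARB (chr3:25340552-25340851), with the word 52 bases before its start. The repeat was written from the known RARB element, so its match in a RARB window was given in advance. Of 35116 windows of the same length over all genes, 15.6% held CCATNTT, 13.8% AGGTCA and 0.057% the repeat. The windows holding CCATNTT and AGGTCA are described only as letters, and no binding was measured.

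ALDH1A3 was the most abundant gene of the set in every library and was higher in shYY1. This retinaldehyde dehydrogenase (ENSG00000184254) lies on chromosome 15, 100877714 to 100916626, on the plus strand, as placed by the deposited table. It had 106868 and 105285 counts in shYY1, against 77012 and 77198 in shNC, or 238 and 235 FPKM in shYY1 against 181 and 167 FPKM in shNC. The groups did not overlap, and the libraries within each group lay close together. ALDH1A3 ranked 130 and 135 by FPKM in shYY1 and 162 and 194 in shNC, among 30716 genes. Its log2 fold change was 0.50 ± 0.0869 (SE), or 1.41-fold, with an adjusted p of 0.00927 in edgeR's quasi-likelihood test over 18035 genes. Of all tested genes, 26.0% had a fold change at least as large in either direction. Leaving out shYY1 replicate 1 (0.51) or shYY1 replicate 2 (0.49) ended the call, while its fold change moved little. Fits without a shYY1 library take their spread from the shNC libraries alone. Over all genes the shNC libraries differed more from each other than the shYY1 libraries did (chi-square per gene 41.6 against 18.9). A gene of the table, AC015712 (ENSG00000259583), overlaps ALDH1A3 on the opposite strand with 758 and 405 counts in shYY1 against 857 and 577 in shNC. No source used here states the counting rule or strand setting, and where the pair overlaps their reads cannot be told apart.

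ALDH1A3 was also the main aldehyde dehydrogenase transcript by FPKM. Summed over the 18 ALDH genes of the table, ALDH1A1 not among them, it made up 70.2% and 70.4% of FPKM in shYY1, against 65.2% and 62.7% in shNC. The sum itself was 340 and 334 FPKM in shYY1 against 278 and 267 FPKM in shNC.

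ALDH3A1, which oxidises medium-chain and aromatic aldehydes and is best known from the cornea, was expressed far below ALDH1A3. ALDH3A1 (ENSG00000108602) lies on chromosome 17, 19737984 to 19748943, minus strand. ALDH3A1 was at 4.45 and 4.36 FPKM in shYY1, against 4.07 and 3.28 FPKM in shNC. Both shYY1 libraries were above both shNC libraries, but shNC replicate 1 came close. The log2 fold change was 0.32 ± 0.125 (SE) and did not pass (edgeR adjusted p = 0.155).

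ALDH1A2, the retinaldehyde dehydrogenase of the early embryo, was barely detected. It had 2 and 12 counts in shYY1 and 8 and 27 counts in shNC, at most 0.0367 FPKM, and the groups overlapped. Its log2 fold change of -1.25 ± 1.22 (SE) rests on these few counts (edgeR adjusted p = 0.595). ALDH1A2 (ENSG00000128918) lies on chromosome 15, 57953424 to 58497866, minus strand.

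**Figure D1:**
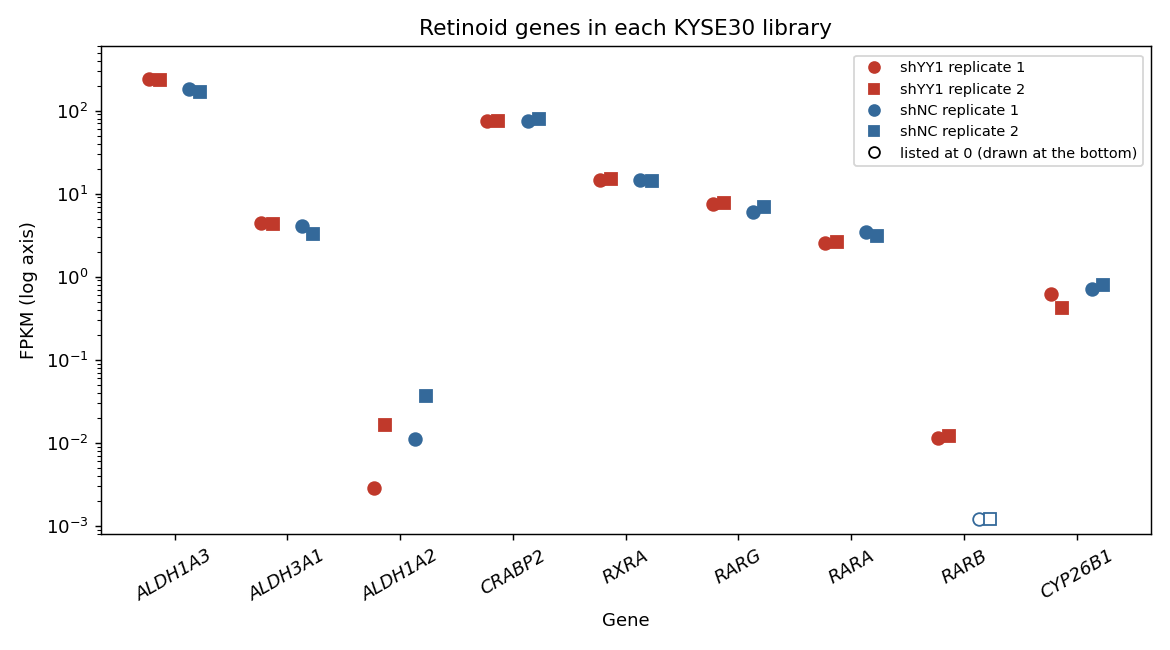
FPKM of the 9 genes with a row in the deposited table (log axis), in the shYY1 libraries (red, left of each pair) and the shNC libraries (blue, right), with circles for replicate 1 and squares for replicate 2. ALDH1A3 sits highest in all 4 libraries, at 235 to 238 FPKM in shYY1 and 167 to 181 FPKM in shNC, and RARB is listed at 0 in shNC (open symbols).

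CRABP2, the carrier that brings retinoic acid to the receptors, was the next most abundant gene of the set by FPKM. It showed no difference that could be told from the spread. CRABP2 (ENSG00000143320) lies on chromosome 1, 156699606 to 156705816, minus strand. CRABP2 was at 75.5 and 75.2 FPKM in shYY1, against 74.2 and 80.2 FPKM in shNC, so both shYY1 libraries lay between the shNC libraries. The log2 fold change was 0.02 ± 0.0884 (SE; edgeR adjusted p = 0.946), and its sign turned in 5 of 14 alternatives, which ranged from -0.07 to 0.12. The alternative carrier FABP5, which takes retinoic acid to the receptor PPARD, was at 14.7 and 15.7 FPKM in shYY1 and 15.4 and 15.7 FPKM in shNC. CRABP1 was at 0 counts in all 4 libraries.

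Of the RAR and RXR genes in the set, RXRA was the most abundant, followed by RARG, RARA and, near 0, RARB. RXRA, the common partner of the RARs (ENSG00000186350, chromosome 9, 134317098 to 134440585, plus strand), was at 14.59 and 15.04 FPKM in shYY1, against 14.7 and 14.2 FPKM in shNC. On this scale the groups overlapped, and in TMM-scaled CPM they did not, at 211 and 223 CPM in shYY1 against 203 and 206 CPM in shNC. The log2 fold change of RXRA was 0.09 ± 0.0765 (SE; edgeR adjusted p = 0.549).

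RARG, the RAR that predominates in skin (ENSG00000172819, chromosome 12, 53210567 to 53232980, minus strand), was at 7.52 and 7.76 FPKM in shYY1, against 5.93 and 6.82 FPKM in shNC. RARA, the more widely expressed RAR (ENSG00000131759, chromosome 17, 40309180 to 40357643, plus strand), was at 2.55 and 2.59 FPKM in shYY1, against 3.44 and 3.09 FPKM in shNC. For RARG both shYY1 libraries were above both shNC libraries, and for RARA both were below. Their log2 fold changes were 0.31 ± 0.112 (SE; edgeR adjusted p = 0.122) for RARG and -0.29 ± 0.119 (SE; edgeR adjusted p = 0.169) for RARA, so neither passed. RARA-AS1, a gene that overlaps RARA, had 56 and 79 counts in shYY1 against 25 and 72 in shNC. RARG passed without shNC replicate 2 (0.46, edgeR adjusted p = 0.0144) and with the replicate number as a block (0.32, edgeR adjusted p = 0.0402).

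The mix of RAR transcripts was nearly the same in both shYY1 libraries and differed between the shNC libraries. RARG made up 74.6% and 74.9% of summed RAR FPKM in shYY1, against 63.3% and 68.8% in shNC. RARA made up 25.3% and 25.0% in shYY1, against 36.7% and 31.2% in shNC. The ratio of RARG to RARA was 2.95 and 2.99 in shYY1, against 1.72 and 2.21 in shNC. The groups did not overlap, and 2 libraries against 2 cannot give an exact permutation p below 0.333. The sum over the RAR genes was 10.1 and 10.4 FPKM in shYY1 and 9.38 and 9.91 FPKM in shNC.

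RARB, which retinoic acid itself induces through the response element in the window shown above, had 4 counts in each shYY1 library and 0 counts in each shNC library. RARB (ENSG00000077092) lies on chromosome 3, 25174332 to 25597932, plus strand. Set against a floor of 3 counts per shNC library, the shYY1 mean of RARB was 1.37-fold higher, which allows no error on its 4 counts. RARB was too low to test. The end of RARB overlaps TOP2B on the opposite strand, which had 3539 counts or more in every library, and the part of such reads in the RARB counts was not tested. CYP26A1, another gene that retinoic acid induces, had 11 and 7 counts in shYY1 and 0 counts in both shNC libraries. Its shYY1 mean was 3.07-fold above the same floor, again with no error on its counts. Of 30716 genes, 147 had 4 counts or more in both shYY1 libraries and 0 in both shNC libraries, as RARB did, and 270 had 0 in both shYY1 libraries and 4 or more in both shNC libraries. With 7 counts or more, as for CYP26A1, these numbers were 58 and 95 genes.

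**Figure D2:**
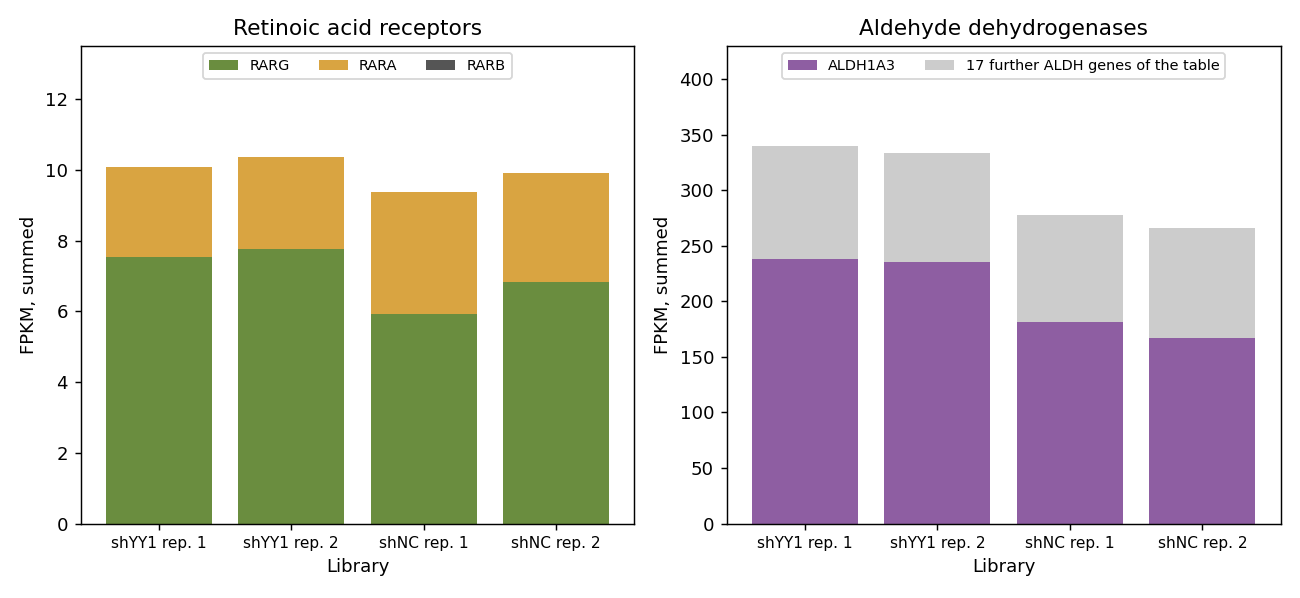
Summed FPKM in each library, of the RAR genes (left panel) and of the 18 ALDH genes of the table (right panel), with the shYY1 libraries left of the shNC libraries. RARG forms a larger part of the RAR bars in shYY1 (74.6% and 74.9%) than in shNC (63.3% and 68.8%), RARB is too low to see, and ALDH1A3 forms 70.2% and 70.4% of the ALDH bars in shYY1 against 65.2% and 62.7% in shNC.

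CYP26B1, which degrades retinoic acid (ENSG00000003137, chromosome 2, 72129238 to 72148038, minus strand), had 264 and 180 counts in shYY1, against 286 and 341 counts in shNC. In FPKM it was at 0.624 and 0.425 in shYY1 and 0.714 and 0.783 in shNC. Both shYY1 libraries were below both shNC libraries, yet they differed more from each other than shYY1 replicate 1 differed from shNC replicate 1. The log2 fold change was -0.46 ± 0.25 (SE; edgeR adjusted p = 0.297), and it was -0.74 without shYY1 replicate 1 and -0.23 without shYY1 replicate 2.

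Over the 8 tested genes of the set, edgeR called 1 higher (ALDH1A3) and 0 lower in shYY1. Among all 18035 tested genes it called 9.94%, with 5.05% higher and 4.90% lower. At an unadjusted edgeR p under 0.05, 3 of the 8 were higher and 1 was lower, beside 4525 of all 18035 tested genes in either direction. At an adjusted p under 0.05, DESeq2 and limma-trend also called 0 of the set lower. In TMM-scaled CPM the groups did not overlap for 6 of the 8, with 4 higher and 2 lower. Of all tested genes 54.9% did not overlap, with 26.8% higher and 28.1% lower. The median log2 fold change of the 8 genes was 0.05, and that of all tested genes was -0.01.

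**Figure D3:**
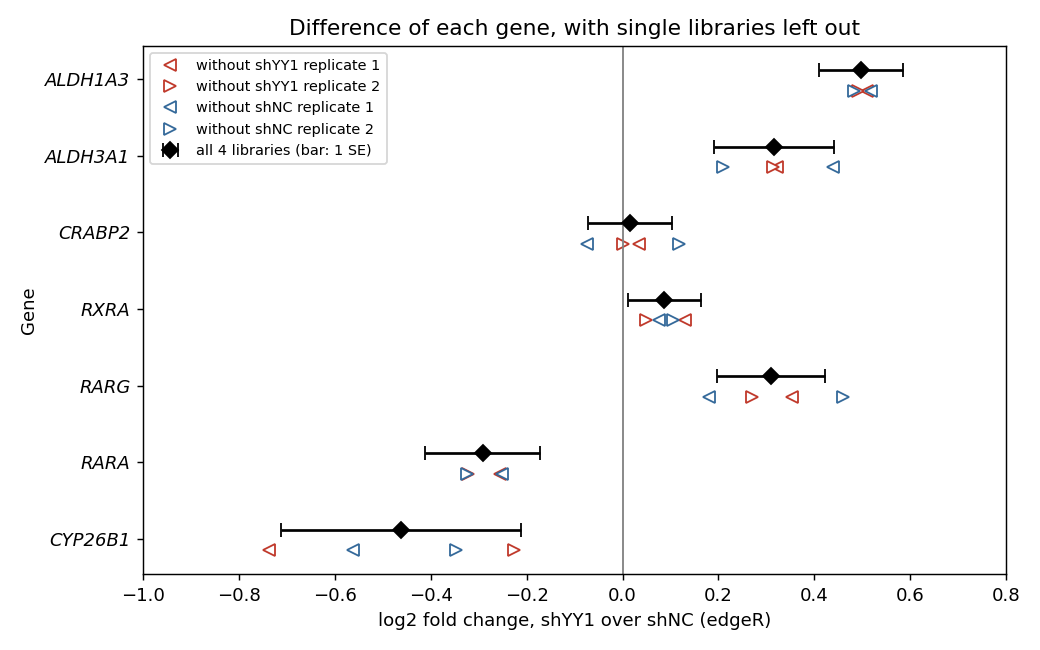
Log2 fold change of shYY1 over shNC for 7 of the 8 tested genes (ALDH1A2, at -1.25 ± 1.22, is not drawn), as black diamonds with 1 SE, and after leaving out single libraries as open triangles. The values of ALDH1A3 stay between 0.48 and 0.52, those of RARG spread from 0.18 to 0.46, and those of CRABP2 lie on both sides of 0.

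Further genes of the pathway and of the ALDH family were read from 6 lists. Over these lists 55 different genes were tested, of which edgeR called 2 higher and 7 lower in shYY1, or 16.4% against 9.94% of all tested genes. Among 11 other aldehyde dehydrogenases tested, 1 rose and 2 fell, with a median log2 fold change of -0.06. ALDH3A2, which oxidises fatty aldehydes and is a neighbour of ALDH3A1 on chromosome 17, was the member that rose, to 23.8 and 24.1 FPKM in shYY1 against 20.2 and 18.3 FPKM in shNC (log2 fold change 0.37 ± 0.0795 SE, edgeR adjusted p = 0.022). ALDH3B1 fell, with 1.73 and 1.79 FPKM in shYY1 against 2.53 and 2.55 FPKM in shNC (-0.47 ± 0.12 SE, edgeR adjusted p = 0.0411). ALDH5A1, the succinic semialdehyde dehydrogenase of GABA breakdown, also fell, with 0.715 and 0.570 FPKM in shYY1 against 1.08 and 1.05 FPKM in shNC (-0.68 ± 0.177 SE, edgeR adjusted p = 0.0446). ALDH3B1 and ALDH5A1 lost their calls whichever library was left out, and that of ALDH3A2 ended when either shYY1 library was left out (edgeR adjusted p = 0.167 without replicate 1 and 0.289 without replicate 2).

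The median log2 fold change of 12 tested genes of retinol oxidation and reduction was 0.18, and 1 of them fell while 11 missed the threshold. RDH11, a retinal reductase of the endoplasmic reticulum, fell, with 12.04 and 12.41 FPKM in shYY1 against 17.7 and 16.1 FPKM in shNC (-0.41 ± 0.0801 SE, edgeR adjusted p = 0.0146). Leaving out shYY1 replicate 1 gave -0.37 (edgeR adjusted p = 0.187) and leaving out shYY1 replicate 2 gave -0.45 (edgeR adjusted p = 0.0845), so either one ended the call. RDH10, the main retinol dehydrogenase of the embryo, was at 4.94 and 4.87 FPKM in shYY1 and 4.42 and 4.47 FPKM in shNC. DHRS3, a retinaldehyde reductase that retinoic acid induces, was at 9.56 and 7.72 FPKM in shYY1 and 6.70 and 7.63 FPKM in shNC, and neither of these genes passed.

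Among 10 tested genes of uptake, storage and carriers the median was -0.02, with 1 that rose and 9 that missed the threshold. LRAT, the enzyme that stores retinol as retinyl esters, rose, with 470 and 478 counts in shYY1 against 294 and 197 counts in shNC, a log2 fold change of 0.98 ± 0.242 (SE; edgeR adjusted p = 0.0371). The shNC libraries differed from each other by more than the shYY1 libraries did, and without shNC replicate 2 the value was 0.71 (edgeR adjusted p = 0.074). STRA6, the membrane receptor for retinol bound to its carrier, was at 5.26 and 5.39 FPKM in shYY1 and 6.14 and 5.85 FPKM in shNC and did not pass (edgeR adjusted p = 0.456).

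Coregulators of the receptors held 3 of the 7 genes that fell. The median over 12 tested receptors and coregulators was -0.18, and 9 of them missed the threshold. NCOA2, a p160 coactivator of nuclear receptors, was at 1.26 and 1.18 FPKM in shYY1, against 3.74 and 2.29 FPKM in shNC, a log2 fold change of -1.24 ± 0.19 (SE; edgeR adjusted p = 0.00676). NCOA1, the first p160 coactivator described, was at 0.762 and 0.902 FPKM in shYY1, against 1.61 and 1.44 FPKM in shNC (-0.82 ± 0.151 SE, edgeR adjusted p = 0.0119). TRIM24, a coregulator that binds RARA in mice, was at 0.982 and 0.967 FPKM in shYY1, against 1.82 and 1.37 FPKM in shNC (-0.66 ± 0.148 SE, edgeR adjusted p = 0.026). NCOA2 was called with each library left out, from -1.52 to -0.89. The call of NCOA1 ended when shYY1 replicate 1 was left out (-0.68, edgeR adjusted p = 0.0601). That of TRIM24 ended when shYY1 replicate 1 (-0.65, edgeR adjusted p = 0.0726) or shNC replicate 1 (-0.48, edgeR adjusted p = 0.0957) was left out. The other p160 coactivator, NCOA3, was at 5.55 and 5.03 FPKM in shYY1 and 6.92 and 5.68 FPKM in shNC, and the corepressor NCOR1 was at 13.4 and 12.5 FPKM in shYY1 and 16.9 and 13.2 FPKM in shNC. Neither of these genes passed.

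Of 14 tested genes known to be induced by retinoic acid, 1 rose (LRAT) and 1 fell, with a median of -0.16. BTG2, an antiproliferative gene, was at 5.69 and 5.22 FPKM in shYY1 and 4.24 and 4.32 FPKM in shNC and did not pass (edgeR adjusted p = 0.0739). TGM2, a transglutaminase, was at 0.229 and 0.210 FPKM in shYY1 and 0.225 and 0.229 FPKM in shNC. The list of retinoic acid degradation had 1 gene in the table, CYP26A1, which was too low to test.

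**Figure D4:**
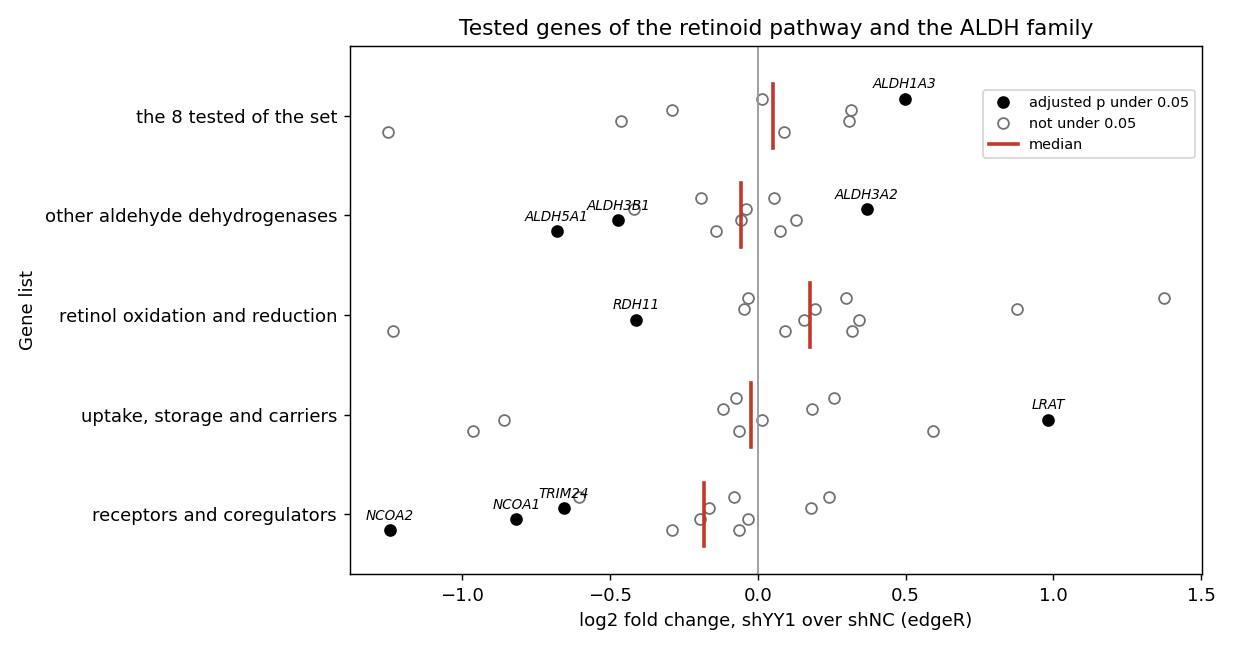
Log2 fold change of shYY1 over shNC for the tested genes of the set and of 4 further lists (1 point per gene, filled where edgeR's adjusted p is under 0.05), with the median of each list as a red line. The medians lie between -0.18 and 0.18, ALDH1A3 is the only filled point of the set, and NCOA2, NCOA1 and TRIM24 are the filled points among receptors and coregulators.

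The pattern of ALDH1A3 over the 4 libraries was shared by many genes. Among 9956 protein-coding genes at 5 CPM or more, those with the smallest distance in centred log2 CPM were PFDN4, a prefoldin subunit (distance 0.0208), DRAM1, a p53-induced lysosomal protein (0.0234), AOPEP, an aminopeptidase (0.0261), VDR, the vitamin D receptor, which also pairs with RXR (0.0299), and ZNFX1 (0.0308). VDR was at 5.57 and 5.58 FPKM in shYY1 against 4.26 and 3.85 FPKM in shNC. With only 4 libraries this measure mainly finds genes with a similar difference between the groups, and 639 genes lay within a distance of 0.2.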

How the data were processed

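RNA was sequenced from 4 KYSE30 libraries, 2 shYY1 and 2 shNC, grouped and numbered by their titles. The submitters' processing notes name Bowtie 0.12.2 and mouse builds, which cannot describe a table of human genes, so how reads were aligned and counted is unknown here. Of the 9 genes of the set in the table, 8 have the same start and end as in GENCODE 29 (GRCh38). The authors deposited raw counts per gene, used as they stand, and the authors deposited FPKM values, used for levels and as an alternative. The floor of 3 counts was 0.0416 to 0.0439 CPM and covers counting error only. A total of 0 columns belonged to other samples.

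Low genes were removed with filterByExpr at a minimum count of 10 and a total of 15, leaving 18035 genes. In R 4.3.3, shYY1 was tested against shNC with the quasi-likelihood test of edgeR 4.0.16, using TMM normalization (factors 0.980 to 1.04), robust fitting and Benjamini-Hochberg adjustment at 0.05 over all tested genes, with 2 residual degrees of freedom. CPM are TMM-scaled, and SEs of log2 fold changes follow from the F statistic. The alternatives tried were the replicate number as a block, each library left out, RLE factors or library totals for scaling, unfiltered genes or those reaching 5 CPM in 2 libraries, the fit without robust estimation, DESeq2 1.42.0, and limma-trend (limma 3.58.1) on log2 CPM or on deposited FPKM with a pseudocount of 1 or 0.1, the last for genes reaching 1 FPKM in 2 libraries. In simulated counts for this comparison over 18035 genes, 200 were changed at each fold. The test recovered 25.5% of genes changed 1.5-fold with 4 false calls and 65.5% of genes changed 2-fold with 20 false calls. At 2-fold the 20 false calls stood beside 131 true calls, a false share above the 0.05 threshold. The data held 1793 called genes, so recovery in them may differ.

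The members and lists were chosen with earlier results of these data known. Named are YY1, the members, up to 4 called genes per direction in each list, the 5 genes most like ALDH1A3 and genes overlapping a member. Genes named beside these (SFN, TP63, KRT6A, KRT5, KRT14, KRT17, EPCAM, CDH1, RLBP1, FABP5, CRABP1, CYP26A1, RDH10, DHRS3, STRA6, NCOA3, NCOR1, BTG2, TGM2) were chosen after their values were seen. Values of some genes that the lists count are not reported here. Same-numbered libraries did not deviate together from their group means (r = 0.019 over 10588 genes), so the numbers were not treated as pairs. With 2 libraries per group, both pairs give the same r by construction.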

Additional observations from a re-analysis of the deposited data

How the results depend on the processing

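With all 4 libraries the test called 910 genes higher and 883 lower. DESeq2 called 1470 higher. The replicate block called 1475 higher and 1427 lower, 2 of the 8 tested genes of the set (ALDH1A3 and RARG, 0.32) in place of 1, and the shared numbers are no evidence of pairing. With single libraries left out, where the lone library is assumed to vary like the other group, the counts ranged from 425 to 2097 higher and from 595 to 1207 lower, 0 to 2 genes of the set were called higher and 0 lower, ALDH1A3 ranged from 0.48 to 0.52, RARG from 0.18 to 0.46 and CRABP2 from -0.074 to 0.118. CRABP2, at 0.016 with all libraries, turned sign with library totals alone (-0.032), with at least 5 CPM (-0.013), on log2(FPKM + 1) and log2(FPKM + 0.1) (-0.034 in each) and without shNC replicate 1 (-0.074), and the cause was not tested. Of the 55 list genes, 2 were called higher and 7 lower, against 1 higher with library totals alone, 1 higher and 4 lower on either FPKM scale, and 1 to 2 higher and 2 to 9 lower with single libraries left out. Library totals alone lowered the share of higher genes among all calls to 40.3%, against 50.8%, and moved the median of all genes to -0.06. ALDH1A3 was called in 12 of 14 alternatives, and no other gene of the set in more than 2. Depth limits ALDH1A2 and RARB, which had at most 27 counts in a library.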
